A study of Homo sapiens with 6 samples.

Results

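MIR155HG, MIR17HG, MIR22HG and MIR181A1HG are 4 human long noncoding RNA genes whose transcripts carry microRNAs that act in immune cells. Their open chromatin was measured by ATAC-seq, in which the Tn5 transposase inserts sequencing adapters into DNA that nucleosomes leave accessible. The material was GM12878, a B lymphoblastoid cell line immortalised with Epstein-Barr virus that comes from 1 donor. Peaks of 6 libraries were assigned to a gene when they overlapped its GENCODE body in hg19 or the 10 kb on either side. Overlapping or adjoining peaks of different libraries were merged into 1 region. This left 24 regions at these 4 genes, out of 56447 regions in the genome and out of 64486 annotated genes.

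All 6 libraries came from cells fixed in 1% PFA and transposed for 30 min, and all were reverse crosslinked at 65 °C overnight with proteinase K. The study compared 3 ways to reverse the crosslinks, with 2 replicates each. The SDS buffer libraries used the older buffer with SDS followed by DNA purification, the libraries of the new buffer with purification used a buffer free of SDS, and those of the new buffer without purification went from that buffer straight into the barcoding PCR. The labels do not say whether the 2 replicates of a protocol were separate cultures, so every p-value below measures only the spread between these libraries, which may be technical. The methods also give the older and the newer protocol different salts, other detergents and volumes, which cannot be told apart from the SDS. For the unpurified workflow they describe its own detergent setting in the lysis buffer, an EDTA stop and a discarded supernatant before reverse crosslinking. Whether the purified libraries of the new buffer had these steps is not stated, so the steps cannot be told apart from purification.

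A microRNA host gene is transcribed as a long primary RNA, from which DROSHA cuts a hairpin and DICER1 releases a mature microRNA that guides an Argonaute protein to messenger RNAs. Bases 2 to 8 of the mature microRNA, the seed, pair with the target, so microRNAs with 1 seed share many targets. The microRNA of MIR155HG, once known as BIC, is induced in activated and Epstein-Barr virus transformed B cells and is needed for the germinal centre response. The MIR17HG cluster is a MYC-driven oncogene of lymphomas, the MIR22HG microRNA acts in blood cell development, and the MIR181A1HG microRNAs set the sensitivity of antigen receptor signalling.

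The 4 hosts carry 20 mature microRNA arms, and each arm had exactly 1 match within its host on the GRCh37 reference. The main arm of each hairpin is shown here from RefSeq with its seed in capitals, because shared seeds tie together products of separate hairpins.
hsa-miR-155-5p: uUAAUGCUaaucgugauagggguu
hsa-miR-17-5p: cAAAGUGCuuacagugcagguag
hsa-miR-20a-5p: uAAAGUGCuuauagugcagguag
hsa-miR-18a-5p: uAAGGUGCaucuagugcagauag
hsa-miR-19a-3p: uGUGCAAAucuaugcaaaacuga
hsa-miR-19b-3p: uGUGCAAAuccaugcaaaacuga
hsa-miR-92a-3p: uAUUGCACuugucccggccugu
hsa-miR-22-3p: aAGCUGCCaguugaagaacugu
hsa-miR-181a-5p: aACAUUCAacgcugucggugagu
hsa-miR-181b-5p: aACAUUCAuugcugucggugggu
Within MIR17HG, miR-17-5p and miR-20a-5p have the same seed, as do miR-19a-3p and miR-19b-3p. In MIR181A1HG, miR-181a-5p and miR-181b-5p share theirs. The seeds of miR-155-5p and miR-22-3p occurred in no other arm of the 4 hosts.

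Every host had 1 promoter region, within 1 kb of one of its own annotated starts, that was called in all 6 libraries, as had 20.5% of all annotated genes and 16.4% of lncRNA genes. Any annotated start counted, and MIR155HG, MIR17HG, MIR22HG and MIR181A1HG have 2, 14, 20 and 7 of them. The shares over all genes were not matched for the number of starts. The strongest stretch of each host promoter region is printed here, because the hosts differ in base composition there. It is given as 300 bases centred on the mean peak summit, on the strand of the gene in hg19. Capitals mark matches on either strand to the SP1 motif GGGCGG in the first 3 windows, also to the E-box CACGTG in MIR155HG, and to the AP-1 motif TGANTCA in MIR181A1HG.
MIR155HG, chr21:26934416-26934715, plus strand: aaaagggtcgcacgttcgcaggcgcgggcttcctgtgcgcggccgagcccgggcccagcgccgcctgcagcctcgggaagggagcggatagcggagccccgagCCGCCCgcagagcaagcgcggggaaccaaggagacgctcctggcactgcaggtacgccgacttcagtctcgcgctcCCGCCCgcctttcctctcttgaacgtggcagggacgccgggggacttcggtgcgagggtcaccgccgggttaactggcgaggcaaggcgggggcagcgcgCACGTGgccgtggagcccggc
MIR17HG, chr13:91999703-92000002, plus strand: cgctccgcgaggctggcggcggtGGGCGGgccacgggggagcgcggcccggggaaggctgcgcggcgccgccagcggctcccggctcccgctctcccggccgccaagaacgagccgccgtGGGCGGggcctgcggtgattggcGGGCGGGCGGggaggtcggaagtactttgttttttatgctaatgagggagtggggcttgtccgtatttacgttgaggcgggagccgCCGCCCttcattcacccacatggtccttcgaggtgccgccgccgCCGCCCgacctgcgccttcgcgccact
MIR22HG, chr17:1619543-1619842, minus strand: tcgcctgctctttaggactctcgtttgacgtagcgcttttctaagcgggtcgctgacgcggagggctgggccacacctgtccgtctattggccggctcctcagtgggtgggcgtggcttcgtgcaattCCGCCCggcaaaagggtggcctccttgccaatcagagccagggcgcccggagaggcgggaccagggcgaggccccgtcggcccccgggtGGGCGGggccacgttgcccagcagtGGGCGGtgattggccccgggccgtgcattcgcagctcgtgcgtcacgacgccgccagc
MIR181A1HG, chr1:198906460-198906759, minus strand: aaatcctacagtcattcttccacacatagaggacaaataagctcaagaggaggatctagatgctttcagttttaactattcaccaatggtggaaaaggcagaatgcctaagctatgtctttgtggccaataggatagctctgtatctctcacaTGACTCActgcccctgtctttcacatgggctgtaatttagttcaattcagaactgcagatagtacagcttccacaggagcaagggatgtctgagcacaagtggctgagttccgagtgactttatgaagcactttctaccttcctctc

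The windows of MIR155HG, MIR17HG and MIR22HG were rich in CpG, while that of MIR181A1HG was not. MIR155HG held 40 CpG dinucleotides at 72.7% GC, MIR17HG held 42 at 72.7% GC, and MIR22HG held 32 at 69.3% GC. The MIR181A1HG window held 1 CpG at 43.7% GC. Over the 9818 promoter regions of any gene called in all 6 libraries, the median window held 28 CpG at 66.7% GC, and only 0.906% of them had fewer CpG than MIR181A1HG. GGGCGG matched 2 times in MIR155HG, 6 times in MIR17HG, where matches overlap at 1 place, and 3 times in MIR22HG. It matched 70.4% of all promoter windows, so its presence was common. CACGTG was in 10.1% and TGANTCA in 6.22% of all promoter windows. None of the 4 windows matched the NF-κB consensus, the ETS motif CCGGAA, the E2F motif GCGGGAA, the IRF motif (GAAA and GAAA with 2 free bases between them) or the RUNX motif TGTGGT. In that order, these motifs were in 14.7%, 29.4%, 9.48%, 3.37% and 12.3% of all promoter windows, so most promoters lack each of them. A match is a description of the letters, and a missing match says only that these letters are not in this window.

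The peak lists were near each other in size, between 30136 peaks for replicate 2 of the new buffer with purification and 38023 for its replicate 1. Read totals are unknown here, and the median summit had 20 to 22 reads in every library. As a check of the cell line, promoter peaks of PAX5, MS4A1 and EBF1 were present in all 6 libraries and those of the other 4 of 7 B cell markers in 1 to 4 libraries. CD8A, of 5 T cell markers, was called in 6 libraries and CD14, of 6 erythroid and myeloid markers, in 4, while the other markers of these lists and all 4 epithelial and liver markers had no promoter peak.

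Of the 24 regions, 5 were promoter regions and 19 were distal, meaning over 1 kb from any start of the host. The host windows held 7.78 regions per 100 kb against 1.82 over the whole reference, which also includes assembly gaps and regions without genes. Density was 15.0 per 100 kb at MIR155HG, 11.7 at MIR22HG, 7.15 at MIR17HG and 6.12 at MIR181A1HG, the longest of the 4 genes.

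Of the 24 regions, 8 were called in all 6 libraries, 3 of 5 at MIR155HG, 2 of 5 at MIR17HG, 1 of 3 at MIR22HG and 2 of 11 at MIR181A1HG. The same was true of 35.5% of all regions in the genome, so the hosts as a set were near the background. Among promoter regions it was 4 of 5, against 57.7% of promoter regions of any gene. Among the 17 distal regions that also lay away from the starts of other genes it was 3, against 26% of such regions in the genome. A further 5 regions were called in 5 libraries and 4 in a single library. The regions called in fewer than 6 libraries had 10 to 46 reads at the summit where they were called, and those called in all 6 had 21 to 109. A list gives no value for a region without a peak, so a missing call does not show closed chromatin.

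**Figure D1:**
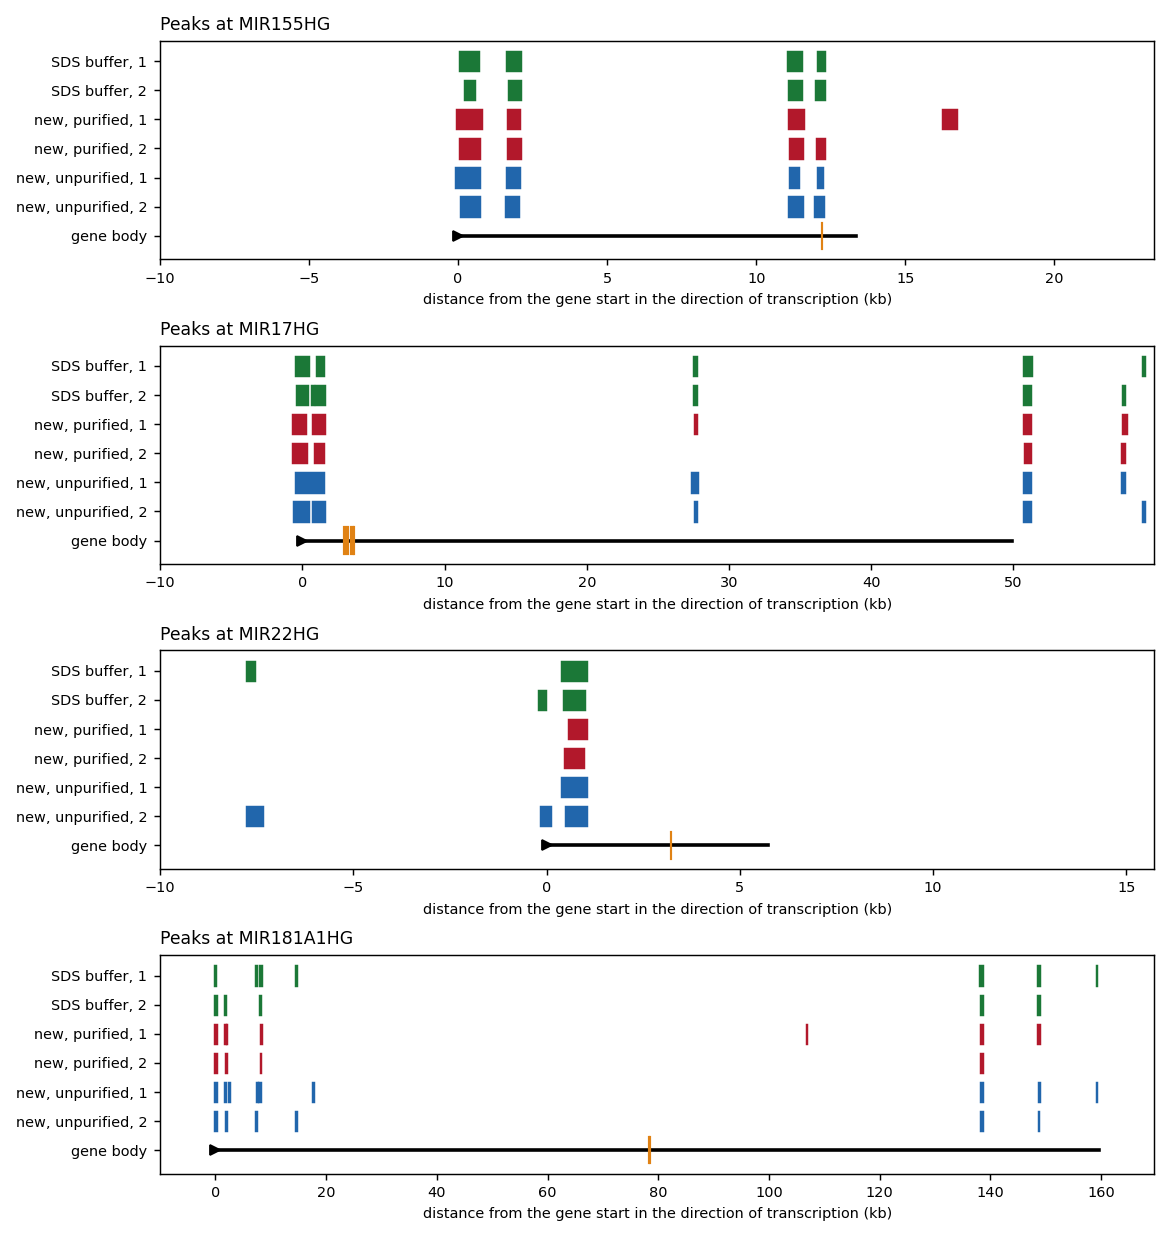
Peaks of each library at the 4 hosts, by distance from the gene start in the direction of transcription (kb). Coloured bars are peaks, with green for the SDS buffer, red for the new buffer with purification and blue for the new buffer without purification, the black line is the gene body and orange marks the mature microRNAs; each host has a peak within 1 kb of an annotated start in all 6 libraries, and at MIR155HG a peak also overlies the microRNA in 5 of 6.

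Each library was ranked by the −log10 q value of its peaks, and the rank is given as a percentage of the peaks in that library, so that a small value is a strong peak. Reads at the summit and the local background, the read height expected there from the surrounding sequence, were solved from the fold enrichment and p-value of each peak. That fold enrichment is the ratio of these heights after a single read was added to each, so it is below their plain quotient. Values are listed in the order SDS buffer replicates 1 and 2, new buffer with purification replicates 1 and 2, and new buffer without purification replicates 1 and 2.

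MIR155HG (ENSG00000234883.7_8, chr21:26934122-26947480, plus strand, 13359 bp) had 5 regions and 4 peaks in every library. Its promoter region, chr21:26934012-26934912, had its mean summit in an exon, 206 bp from the nearest of 2 annotated starts and 444 bp past the upstream one. The merged region covered the upstream start, but only the peaks of replicate 1 of the new buffer with purification and replicate 1 of that without did so themselves. In the other libraries the peak began 40 to 185 bp past it. The summit had 52, 31, 50, 39, 61 and 54 reads over a local background of 11, 8.94, 11.6, 9.66, 12.1 and 11.5 reads. The fold enrichment was 4.42, 3.22, 4.05, 3.75, 4.74 and 4.41. The promoter ranked in the strongest 26.9%, 75.1%, 33.4%, 47.2%, 19.6% and 25.2%, with a mean of 37.9% ± 20.5 (SD, n = 6). Replicate 2 of the SDS buffer was the lowest library by all 3 measures, and the libraries of the new buffer without purification were above the other 4 in reads and in rank, though not in fold enrichment. The share of all regions with such an order was not counted.

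Inside the gene, the strongest distal region was chr21:26945165-26945713 in the intron, called in all 6 libraries. Its summit had 62, 52, 55, 44, 35 and 47 reads, and it ranked in the strongest 17.9%, 26.0%, 29.8%, 33.9%, 88.8% and 37.6%. It outranked the promoter in the 4 libraries of the SDS buffer and of the new buffer with purification and stood behind it in the other 2, a reversal that was not tested. A further intronic region, chr21:26935708-26936245, was also called in all 6 libraries, with 37 to 52 reads. The 300 bases around the summit of each intronic region held 1 match to TGTGGT, the RUNX motif, which 40.5% of distal windows hold.

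The exon that encodes miR-155 was itself covered by a peak. The region chr21:26946065-26946443 contained both arms of the hairpin, miR-155-5p at chr21:26946295-26946318 and miR-155-3p at chr21:26946334-26946355. It was called in 5 of 6 libraries, at 35 to 46 reads and ranks between 41.8% and 73.6%, and replicate 1 of the new buffer with purification lacked it. These were the only 2 of the 20 arms that lay in any region. The region downstream of the gene, chr21:26950366-26950851, was called in that replicate alone. At all 5 regions of MIR155HG the local background was 8.94 to 13.7 reads, while the median peak of a library had 2.5 to 3.06.

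MIR17HG (ENSG00000215417.14_8, chr13:91999940-92049846, plus strand, 49907 bp) had 4 to 6 peaks per library and the strongest promoter of the 4 hosts by reads and by rank. Its promoter region, chr13:91999208-92001550, spanned 2343 bp around the start, with the mean summit 87 bp upstream. The summit had 101, 95, 109, 101, 107 and 96 reads over a local background of 14.9, 14.0, 18.9, 15.9, 16.5 and 16.9 reads. The fold enrichment was 6.43, 6.40, 5.54, 6.03, 6.17 and 5.43. It ranked in the strongest 2.42%, 2.09%, 3.63%, 2.62%, 2.89% and 4.98%, with a mean of 3.10% ± 1.06 (SD, n = 6). All 6 libraries placed it among their strongest 5%. The SD of its rank and of its fold enrichment was the smallest of the 4 promoters. That of its reads was not, at 5.65 beside 5.22 for MIR22HG. In replicate 1 of the new buffer without purification it was 1 peak of 2028 bp, and in the other libraries it was split into 2 or 3 peaks.

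The hairpins of the MIR17HG cluster are exonic and lie close to this region but outside it. The arms began 1322 bp past its edge with miR-17-5p, chr13:92002872-92002894, and ended with miR-92a-3p, chr13:92003615-92003636, 2065 bp past it. The strongest distal region, chr13:92050575-92051227, lay past the 3' end of the host and at the start of GPC5, a heparan sulfate proteoglycan of the glypican family, 50 bp from that start. Its summit had 32, 28, 37, 32, 40 and 46 reads, and it ranked in the strongest 28.4%, 24.8%, 18.5%, 21.3%, 13.7% and 9.05%. Its 300-base window had 39 CpG and 3 matches to GGGCGG, beside a median of 28 CpG and a match in 70.4% of promoter windows of any gene. An intronic region at chr13:92027297-92027735 was called in 5 libraries, and 2 regions within GPC5 were called in 4 and in 2.

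MIR22HG (ENSG00000186594.16_12, chr17:1614741-1620468, minus strand, 5728 bp) had the fewest regions, 3, and 1 to 3 peaks per library. Its main promoter region, chr17:1619413-1620088, also lay within 1 kb of a start of WDR81, a gene of endosomal trafficking, so the peak cannot be assigned to one of the genes. The mean summit was 58 bp from the nearest start of MIR22HG and 124 bp from that of WDR81. It had 40, 29, 39, 30, 41 and 37 reads over a local background of 4.36, 3.62, 3.48, 3.88, 5.24 and 4.52 reads. The fold enrichment was 7.65, 6.49, 8.93, 6.35, 6.73 and 6.88. It ranked in the strongest 15.8%, 28.8%, 13.9%, 29.4%, 20.2% and 21.3%, with a mean of 21.6% ± 6.44 (SD, n = 6). The 3 protocols overlapped in reads, in fold enrichment and in rank.

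A weaker promoter region at the most upstream annotated start of MIR22HG, chr17:1620360-1620677, also within 1 kb of the WDR81 start, was called in replicate 2 of the SDS buffer with 16 reads and in replicate 2 of the new buffer without purification with 22 reads. It ranked at 96.0% and 72.0% of those lists. The distal region chr17:1627800-1628246 lay at another start of WDR81 and was called in 2 libraries. The arms of miR-22 are exonic, at chr17:1617208-1617229 and chr17:1617246-1617267, and lay 2184 and 2146 bp from the main promoter region.

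MIR181A1HG (ENSG00000229989.6_9, chr1:198746990-198906600, minus strand, 159611 bp) had the most regions, 11, of which 10 were distal, and 4 to 9 peaks per library. Its promoter region, chr1:198906374-198906914, was narrow at 541 bp, with the mean summit 10 bp upstream of the start. The summit had 40, 39, 33, 24, 43 and 39 reads over a local background of 5.44, 4.74, 5.44, 4.84, 5.52 and 4.68 reads. The fold enrichment was 6.37, 6.97, 5.28, 4.28, 6.75 and 7.04. It ranked in the strongest 21.5%, 16.5%, 36.7%, 62.1%, 18.8% and 19.0%, with a mean of 29.1% ± 17.7 (SD, n = 6). The 2 libraries of the new buffer with purification were the lowest by every one of these measures except the local background. How often other regions show such an order was not counted.

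The strongest distal region of MIR181A1HG lay deep in the gene, in an intron at chr1:198767886-198768596. Its summit had 30, 26, 38, 21, 31 and 26 reads, and its fold enrichment was 8.07, 6.75, 10.7, 6.92, 8.29 and 7.38. It ranked in the strongest 22.6%, 31.0%, 10.96%, 38.5%, 22.1% and 30.1%. It ranked ahead of the promoter in both libraries of the new buffer with purification and behind it in the other 4, a difference that was not tested. The other 9 distal regions were called in 1 to 5 libraries, 3 of them in a single one. The arms of miR-181a and miR-181b are intronic, between chr1:198828016 and chr1:198828259, and lay 78115 to 78338 bp from the promoter region. The nearest region of any kind was 28161 bp away, called in replicate 1 of the new buffer with purification alone, and the nearest called in all 6 libraries was 59420 bp away.

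**Figure D2:**
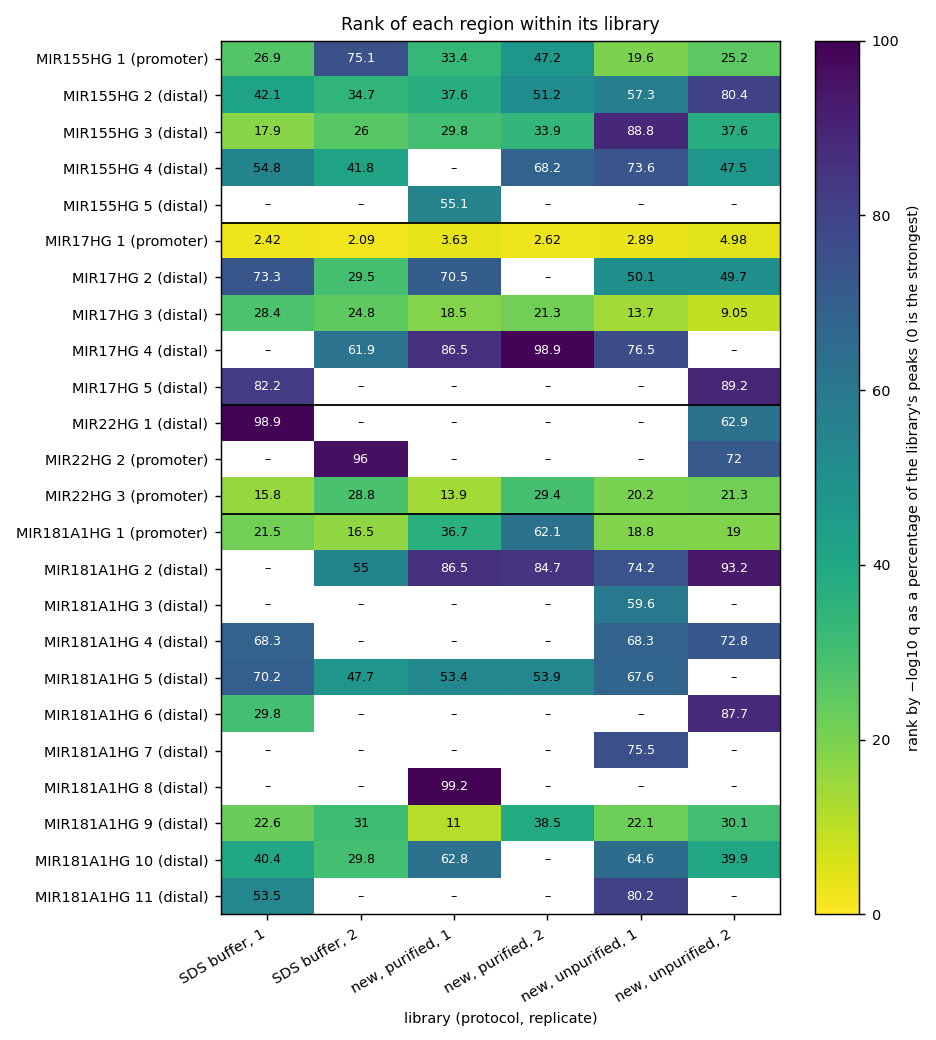
Rank of the 24 regions (rows, numbered within each host) in the 6 libraries (columns), as a percentage of the peaks of the library, where 0 is the strongest; a dash means no peak. MIR17HG region 1 lies between 2.09% and 4.98% in every library, while regions with missing calls mostly lie beyond 40%.

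Set side by side, the 4 promoters came in different orders by reads and by fold enrichment. The reads were taken at a single base, so the width of a region does not enter them directly. The local background comes from the surrounding sequence, and the part of the width in it and in the fold enrichment was not tested. MIR17HG had 101.5 ± 5.65 reads, MIR155HG had 47.8 ± 10.9, MIR181A1HG had 36.3 ± 6.86 and MIR22HG had 36.0 ± 5.22 (SD, n = 6 libraries each). MIR17HG exceeded each of the others in 6 of 6 libraries, and MIR155HG minus MIR17HG was −53.7 reads (exact two-sided sign-flip permutation test over the 6 libraries, p = 0.03125, the smallest possible, and 0.0469 after adjustment over 6 pairs). MIR155HG exceeded MIR22HG by 11.8 reads in 6 of 6 libraries (exact permutation test, adjusted p = 0.0469) and MIR181A1HG by 11.5 reads in 5 of 6 (exact permutation test, adjusted p = 0.075). MIR181A1HG and MIR22HG did not differ beyond their spread (exact permutation test, adjusted p = 1).

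By fold enrichment MIR155HG came last. MIR22HG had 7.17 ± 0.972, MIR181A1HG had 6.11 ± 1.11, MIR17HG had 6.0 ± 0.427 and MIR155HG had 4.10 ± 0.548 (SD, n = 6). MIR155HG was below each of the others in 6 of 6 libraries (exact permutation test, adjusted p = 0.0469 for each pair). MIR22HG was above MIR17HG in 6 of 6 (exact permutation test, adjusted p = 0.0469), and the remaining pairs did not differ beyond their spread. The local background differed between all pairs in 6 of 6 libraries (exact permutation test, adjusted p = 0.03125), at 16.2 ± 1.69 reads for MIR17HG, 10.8 ± 1.23 for MIR155HG, 5.11 ± 0.395 for MIR181A1HG and 4.18 ± 0.658 for MIR22HG (SD, n = 6). By rank, MIR17HG was ahead of each other host in 6 of 6 libraries, with the smallest possible p (exact permutation test, p = 0.03125). The adjusted p of 0.0625 in that test missed the threshold of 0.05. Its size depends on how many of the 6 pairs reach the smallest p, so it does not set rank below reads for MIR17HG. No neighbours among MIR22HG, MIR181A1HG and MIR155HG differed beyond their spread by rank.

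**Figure D3:**
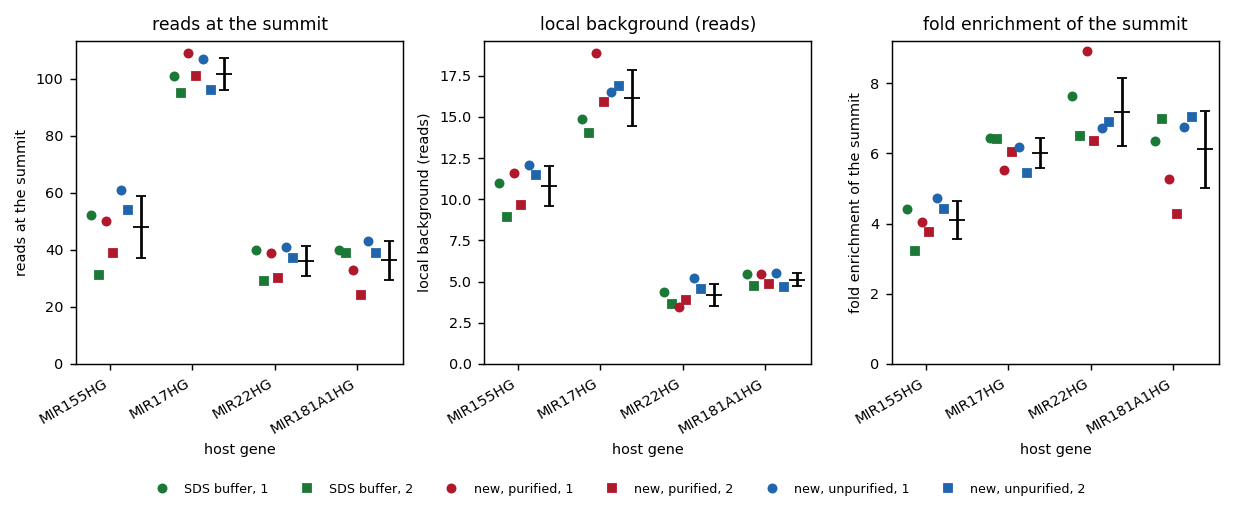
Reads at the summit, local background in reads and fold enrichment of the strongest promoter region of each host, 1 point per library, with the mean and SD over 6 libraries in black. MIR17HG is highest by reads and by background, and MIR155HG is second by both but lowest by fold enrichment.

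Against the 9818 promoter regions of any gene called in all 6 libraries, MIR155HG was at the edges by local background and fold enrichment. MIR17HG was at the upper edge by reads, local background and width, but not by fold enrichment. MIR22HG was near the middle by reads and by fold enrichment. At MIR155HG the local background was above that of 97.7% of promoters and the reads above 74.9%, while only 1.62% had a lower fold enrichment. At MIR17HG the reads were above 98.9%, the background above 99.8% and the width above 99.97% of promoters, whose median width was 841 bp. The fold enrichment of MIR17HG was above that of 23.4% of promoters. Its width rests on replicate 1 of the new buffer without purification, where a single peak joined peaks that the other libraries kept apart. Without that library the hosts had 6 promoter regions in place of 5. MIR22HG had a fold enrichment above 49.99% of promoters, close to the median of 7.17, and reads above 55.1%. MIR181A1HG had reads above 55.8% and a fold enrichment above 25.8%, and only 7.96% of promoters were narrower. The part of the local background in these ranks was not tested.

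**Figure D4:**
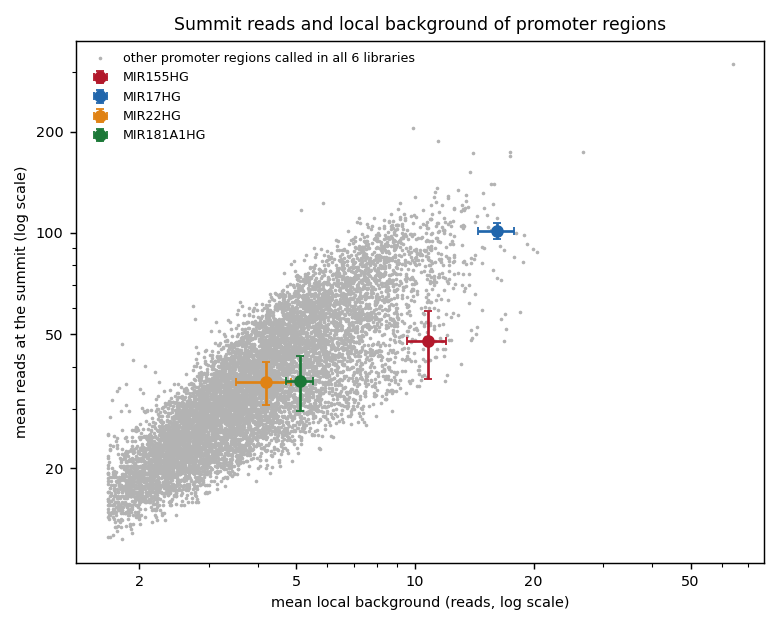
Mean reads at the summit against mean local background (reads, both axes logarithmic) for the promoter regions called in all 6 libraries, with the 4 hosts in colour and bars of 1 SD over 6 libraries. MIR155HG lies at the lower right edge of the cloud and MIR17HG at its upper right, while MIR22HG and MIR181A1HG lie within it.

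The purpose of the 3 protocols was to test a buffer that lets the PCR follow without purification, and the hosts were compared between them in number of peaks and in fold enrichment. The windows of the 4 hosts held 18 and 17 peaks in the SDS buffer, 17 and 13 in the new buffer with purification and 18 and 18 in the new buffer without purification. The new buffer with purification had 2.5 fewer peaks than the SDS buffer (exact two-sided permutation test, p = 0.667), the new buffer without purification 0.5 more than the SDS buffer (exact permutation test, p = 1) and 3 more than the new buffer with purification (exact permutation test, p = 0.333). All 3 adjusted p were 1, and with 2 libraries against 2 no p can fall below 0.33. No region of the 4 hosts (0 of 24) was specific to a protocol, that is, had peaks in its 2 replicates but not in the other 4 libraries, against 2.45% of all regions.

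Fold enrichment was tested with limma on the 20064 regions called in all 6 libraries, 8 of which belonged to the hosts. The other 16 host regions lacked a peak in at least 1 library and were not tested, so the limma results do not cover them. With Benjamini-Hochberg adjustment over all regions, 0 of the 8 passed 0.05 in any comparison. In the genome, 1 region (0.00498%) passed in the new buffer with purification against the SDS buffer, 1 (0.00498%) in the new buffer without purification against the SDS buffer and 0 (0%) between the new buffers. At an unadjusted p under 0.05 the limma counts were 1374, 1313 and 981 of all regions and 1, 3 and 1 of the 8. The median log2 difference over the 8 was −0.02, 0.02 and −0.05, beside 0.00289, −0.00115 and −0.000607 over all regions.

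The single regions behind those unadjusted counts are given with their intervals. The MIR181A1HG promoter had a log2 fold enrichment that differed by −0.48 for the new buffer with purification minus the SDS buffer (95% interval −0.90 to −0.06, limma adjusted p = 0.667). For the new buffer without purification minus the new buffer with purification the difference was 0.55 (0.13 to 0.98, limma adjusted p = 0.9998). Its 2 values in the new buffer with purification were 5.28 and 4.28.

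The region at the GPC5 start near MIR17HG had a fold enrichment of 6.50 and 7.40 in the SDS buffer, 7.79 and 7.50 in the new buffer with purification and 8.91 and 9.22 in the new buffer without purification. The log2 difference of the new buffer without purification from the SDS buffer was 0.41 (0.05 to 0.77, limma adjusted p = 0.690). Both intronic regions of MIR155HG had differences below 0 in the same comparison, −0.36 for chr21:26935708-26936245 (−0.67 to −0.06, limma adjusted p = 0.679) and −0.45 for chr21:26945165-26945713 (−0.83 to −0.06, limma adjusted p = 0.682). For the second, replicate 1 of the new buffer without purification had a fold enrichment of 2.66 and replicate 2 had 3.89, and the difference was −0.14 without the former and −0.75 without the latter.

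The other promoters had smaller differences. For MIR155HG they were 0.06, 0.30 and 0.25, in the order of comparisons above, with the last between the new buffers. For MIR17HG they were −0.14, −0.12 and 0.02, with an interval of −0.54 to 0.30 for the new buffer without purification against the SDS buffer. For MIR22HG they were 0.10, −0.03 and −0.13. No interval over the 8 regions reached beyond −0.90 or 0.98, so changes beyond these bounds lie outside every interval.

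**Figure D5:**
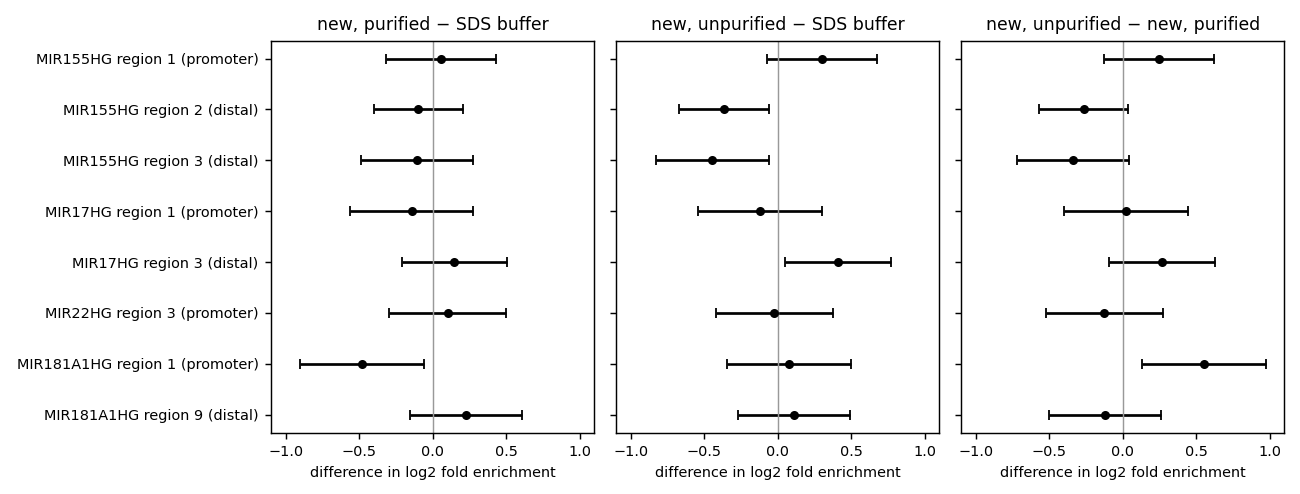
Difference in log2 fold enrichment between protocols (x axis, first minus second) for the 8 regions of the hosts called in all 6 libraries, with 95% intervals from limma. Intervals of 1, 3 and 1 regions leave out 0 before adjustment, and none passes after it.

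Other microRNA hosts, genes with symbols of the form MIR and HG, had a promoter region in all 6 libraries in 20 of 79 cases (25.3%), in some libraries in 9 and in none in 50. The share was 20.5% for all genes and 16.4% for lncRNA genes. By alphabet, MIR1-1HG, MIR122HG and MIR124-1HG had no promoter peak and MIR100HG had one in 1 library. Chosen after their values were seen, MIRLET7A1HG, a let-7 host, ranked in the strongest 1.70% on average and MIR3142HG, the host of miR-146a, in the strongest 3.27%, while MIR142HG, host of a microRNA of blood cells, stood at 63.8%.

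The machinery that makes and uses microRNAs was mostly open, with 16 of 20 genes called at the promoter in all 6 libraries, against 46.3% of protein-coding genes. AGO2, the Argonaute that cuts targets, was called in 4 libraries, and AGO4 and the let-7 regulators LIN28A and LIN28B in none. Chosen after their values were seen, DROSHA stood at 2.59% and DICER1 at 12.5% on average.

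Of textbook targets of the MIR17HG cluster, the cell cycle regulators E2F1 and CDKN1A and the death factor BCL2L11 were called in all 6 libraries. For miR-155 it was 3 of 5, with the cytokine signal inhibitor SOCS1 at 16.3% and the repressor BACH1 at 26.1%. The phosphatase INPP5D was called in 3 libraries and the myeloid factor SPI1 in none. For the miR-181 family it was 3 of 4, the phosphatases DUSP5, PTPN11 and PTPN22, with DUSP6 called in 1 library. Over all protein-coding genes the share called in all 6 libraries was 46.3%, and these short lists were not tested against it. None of the tested promoter regions of these lists, nor of the other hosts, passed limma with adjustment in any comparison, and at most 1 per list had an unadjusted p under 0.05.

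The promoters most like each host over the 6 libraries were found by the root-mean-square difference in log2 fold enrichment, among 11094 or 11095 genes. For MIR155HG they were PLCG1, ACTB and VIM at 0.13, 0.14 and 0.14. For MIR17HG they were MBOAT7, STXBP6 and CD47 at 0.06, 0.07 and 0.08, and for MIR22HG CDK2AP2, CFAP99 and SIPA1L3 at 0.04, 0.07 and 0.07. For MIR181A1HG they were FOSL2, IGHV1OR15-1 and PEX26 at 0.12 each.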

How the data were processed

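The material was bulk ATAC-seq peaks of 6 GM12878 libraries, with 3 ways to reverse the crosslinks in duplicate (2 each). Groups and replicate numbers came from the labels, except that the labels name DNA purification only where it was left out, and its use in the other groups came from the study's methods and legends. The authors mapped reads to hg19 with Bowtie2 (2.1.0), removed duplicates with Picard (1.79) and used MACS2 with a q value limit of 0.01 for narrow peaks. Its version is not given in the sources used here. As to pooling, the methods describe merging samples of a condition before peak calling, but there is 1 list per library here.

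The deposited score is the −log10 q value times 10 without decimals and was not used further. The deposited fold enrichment is the authors' ratio of summit reads to local background after a single read was added to each. The deposited −log10 p and −log10 q values are those of the summit. Read totals were not used here, so depth is unknown.

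From there, peaks that overlapped or adjoined were merged into regions in Python (3.11.15), and the merge was checked with bedtools (2.31.1). Each library was given its strongest peak in a region. Summit reads and local background were solved from the fold enrichment and the Poisson p, within 0.001 for 100% of peaks. Gene starts came from GENCODE 44 lifted to GRCh37, and all 24 chromosomes lay within the reference. Mature microRNAs came from RefSeq (GRCh38.p14 table), and their positions from exact matches in GRCh37. Motifs were searched on both strands of 300-base windows.

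Log2 fold enrichment, centred on the median region of each library, was tested with limma (3.58.1, R 4.3.3, empirical Bayes with trend) over all regions called in all libraries, with Benjamini-Hochberg adjustment and a threshold of 0.05. The script was tested on simulated data. Promoters were compared with exact sign-flip tests over libraries, and peak counts with exact permutation tests.

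The rule for named items was the 4 members, every promoter region, the strongest distal region of each gene, regions of 1 protocol only, the 3 likest promoters, and up to 4 genes per list, of which 1 is not reported here. The members and lists were chosen with earlier results of these data known. The alternatives changed the flank, the promoter distance, the merging, the peak threshold, the centring, the measure and the libraries, or added a replicate block. Leaving out single libraries in the comparison of promoters, and the other settings for the single regions named, were added after seeing the data.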

Additional observations from a re-analysis of the deposited data

How the results depend on the processing

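The counts of regions (24), of promoter regions (5) and of regions called in every library (8) stayed within 1.5 times under the other settings tried, except that a 50 kb flank gave 13 regions called in every library. Without single libraries the regions called in every remaining library were 8 to 10. The difference in peaks between the new buffer without purification and the SDS buffer was 0 for peaks whose −log10 q reached 5, and 0 to 1 without single libraries, where leaving out SDS buffer replicate 2 gave 0 and SDS buffer replicate 1 gave 1. Its counterparts were −4.5 to −0.5 for the new buffer with purification against the SDS buffer and 1 to 5 between the new buffers, with the value nearest 0 in each case without replicate 2 of the new buffer with purification.

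The limma count over all regions for the new buffer with purification against the SDS buffer was 10 with summit reads and 0 to 6 without single libraries, with 0 without either SDS buffer replicate, 3 without replicate 1 of the new buffer without purification and 6 without replicate 1 of the new buffer with purification. For the new buffer without purification against the SDS buffer it was 0 when not centred, 4 with summit reads and 0 to 2 without single libraries, with 0 without either SDS buffer replicate or replicate 1 of the new buffer without purification, and 2 without replicate 1 of the new buffer with purification or replicate 2 of that without. The cause was not tested. None of the 8 host regions passed in any of 10 alternatives, where the lowest adjusted p was 0.316.

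With the replicate block the limma counts were 1, 1 and 0 and the differences in peaks −2.5, 0.5 and 3, as without it. Samples with the same number did not deviate together in fold enrichment (Pearson r of −0.000802 to 0.0149 over the regions called in all 6 libraries). Whether they share a culture or a batch that acts on depth or on missing calls was not tested. Of the promoter contrasts, 2 were rerun without each library, the rank of MIR22HG minus MIR17HG and the summit reads of MIR155HG minus MIR17HG, and both kept their direction with an exact permutation p of 0.0625, the smallest that 5 libraries allow. Read depth is unknown, and its part in the missing calls was not tested.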
